A study of Mus musculus with 9 samples.

Results

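The interferon-inducible GTPases of the mouse form 2 related families, the guanylate-binding proteins (Gbp) and the immunity-related GTPases (Irg). The 10 genes described here, Gbp2, Gbp3, Gbp6, Gbp7, Gbp9, Irgm1, Irgm2, Igtp, Ifi47 and Iigp1, were taken by symbol from the 53647 genes of the table, and all 10 were among the 13661 genes with enough counts to be tested. Their transcripts were counted in poly(A) RNA libraries of Hepa 1-6, a mouse hepatoma cell line, from 3 groups of 3 samples: Usp5 knockout cells made with a lentiviral CRISPR vector carrying a Usp5 guide (pLentiCRISPR), Ythdf1 knockout cells made with CRISPR/Cas9/EGFP plasmids, and cells with a control guide (sgControl). USP5 is a deubiquitinase and YTHDF1 a reader of N6-methyladenosine in mRNA, and the study asked which immune genes the 2 knockouts change alike. All groups were grown in DMEM with fetal bovine serum, and no interferon treatment is named in the labels. Knockout lines were single-cell clones picked by serial dilution and immunoblot. The labels do not say how many clones were sequenced or whether the numbered samples were separate cultures, so a p-value here takes in no more than the variation among the sequenced samples, and that variation may be technical. Differences between clones, or between lentiviral and plasmid delivery, cannot be told apart from effects of a knockout here.

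Both families are switched on by interferon-gamma, which binds the receptor made of IFNGR1 and IFNGR2 and acts through the kinases JAK1 and JAK2 and transcription factors that include IRF1. These factors bind short promoter elements, the GAS and the ISRE, and complexes with IRF9 bind the ISRE. The induced GTPases coat vacuoles that hold intracellular microbes. GBPs and the effector Irg proteins (Iigp1, Tgtp1, Tgtp2 and Ifi47) disrupt these vacuoles, while Irgm1, Irgm2 and Igtp, also called Irgm3, hold the effector Irg proteins inactive on the cell's own membranes. In hepatocytes the families are best known as part of the response to infection.

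The libraries held 24760877 to 42989715 counts. The mitochondrial share ranged from 2.32% to 6.14%, and control replicate 3 at 5.91% stood apart from the other control samples at 2.32% and 2.33%. The transcript of each targeted gene was lower in its own knockout: Usp5 averaged 115.3 ± 6.59 CPM in Usp5 knockout cells and 213.6 ± 26.5 CPM in control cells, and Ythdf1 averaged 48.3 ± 2.22 CPM in Ythdf1 knockout cells and 188.6 ± 7.06 CPM in control cells (CPM, scaled by TMM library sizes, SD, n = 3 each). The 9 hepatocyte and hepatoma markers summed to 5350 to 5630 CPM in Usp5 knockout cells, 6470 to 6520 CPM in Ythdf1 knockout cells and 4420 to 4690 CPM in control cells, with no overlap and none at 0 counts. Of these, Alb was at 825 to 1010 CPM in Usp5 knockout cells, 1160 to 1380 CPM in Ythdf1 knockout cells and 534 to 689 CPM in control cells. Afp was at 1010 to 1460 CPM in every library, but Ttr was at 0.0232 to 1.26 CPM and Apoa1 at 0.116 to 0.613 CPM, near 0. The 10 leukocyte markers summed to 9.09 to 10.9 CPM in Usp5 knockout cells, 14.4 to 16.4 CPM in Ythdf1 knockout cells and 11.7 to 14.2 CPM in control cells, with 5 of the 10 at 0 counts in all Usp5 knockout samples, 3 in all Ythdf1 knockout samples and 4 in all control samples. Cd3e and Nkg7, which define T and NK cells, were at 0 in all 9 libraries. The myeloid markers Cd68, at 3.04 to 8.54 CPM, and Csf1r, at 4.37 to 7.92 CPM, were found in all 9 and made up most of each sum. The 6 endothelial markers summed to 0.578 to 0.986 CPM in Usp5 knockout cells, 1.13 to 1.3 CPM in Ythdf1 knockout cells and 0.645 to 0.926 CPM in control cells, with Emcn at 0 throughout. Pecam1, at 0.464 to 0.957 CPM over the 9 libraries, made up most of each endothelial sum. The 6 stellate cell or fibroblast markers summed to 1080 to 1420 CPM in Usp5 knockout cells, 1060 to 1290 CPM in Ythdf1 knockout cells and 856 to 1270 CPM in control cells, nearly all of it Dcn, with Lrat at 0 throughout. The part of these markers in the differences below was not tested.

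The promoters of these genes were searched for the cores of both elements. Of the 10 members, 7 were searched in RefSeq promoters (GRCm38.p6, windows of 300 bases around the start, most of it upstream). Gbp6 and Gbp9 had no promoter entry in the reference used. Iigp1 was left out of the search, so whether its promoter holds a core was not tested. An ISRE core, GAAA and GAAA with any 2 bases between them, on either strand, was found in 6 of the 7, against 3.44% of 32851 promoters, and a GAS core, TTC and GAA with any 3 bases between them, which reads the same on both strands, in 3 of the 7, against 8.3% of promoters. A member counted once if any of its windows held a core, while the 32851 promoters were counted window by window, so the 2 shares differ in unit. The motifs may overlap and were chosen after values had been seen, so the shares are descriptions. The promoters printed here are those of a member that fell in the Usp5 knockout (Gbp3), a member on the same chromosome that did not (Gbp7), the member with the most counts (Irgm1), an effector relative that fell (Tgtp1) and the member that fell in both knockouts (Ifi47). Capitals mark ISRE and GAS cores. They lie at chr3:142559794-142560093 (plus strand) for Gbp3, chr3:142530086-142530385 (plus strand) for Gbp7, chr11:48871371-48871670 (minus strand) for Irgm1, chr11:48992197-48992496 (minus strand) for Tgtp1 and chr11:49076337-49076636 (plus strand) for Ifi47.
Gbp3: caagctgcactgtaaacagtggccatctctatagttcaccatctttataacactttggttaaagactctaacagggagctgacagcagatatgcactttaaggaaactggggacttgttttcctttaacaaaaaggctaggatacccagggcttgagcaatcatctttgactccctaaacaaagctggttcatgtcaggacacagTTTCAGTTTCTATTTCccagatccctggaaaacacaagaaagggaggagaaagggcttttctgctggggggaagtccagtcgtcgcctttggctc
Gbp7: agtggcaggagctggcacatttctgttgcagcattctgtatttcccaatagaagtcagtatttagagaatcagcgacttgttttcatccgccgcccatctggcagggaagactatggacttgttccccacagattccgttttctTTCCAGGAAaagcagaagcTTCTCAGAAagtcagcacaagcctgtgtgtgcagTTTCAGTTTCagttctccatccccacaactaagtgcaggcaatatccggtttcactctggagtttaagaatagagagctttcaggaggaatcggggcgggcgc
Irgm1: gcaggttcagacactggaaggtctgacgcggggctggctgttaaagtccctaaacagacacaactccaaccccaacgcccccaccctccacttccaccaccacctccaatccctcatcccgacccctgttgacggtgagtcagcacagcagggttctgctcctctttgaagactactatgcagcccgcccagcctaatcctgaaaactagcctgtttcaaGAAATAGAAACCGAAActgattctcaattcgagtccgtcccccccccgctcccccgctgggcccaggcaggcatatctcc
Tgtp1: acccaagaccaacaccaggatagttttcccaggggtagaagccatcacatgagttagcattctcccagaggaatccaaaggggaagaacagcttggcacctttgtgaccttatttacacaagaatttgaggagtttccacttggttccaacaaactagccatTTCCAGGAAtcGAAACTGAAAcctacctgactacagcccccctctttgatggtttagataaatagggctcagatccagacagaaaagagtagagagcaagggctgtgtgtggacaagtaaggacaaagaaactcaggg
Ifi47: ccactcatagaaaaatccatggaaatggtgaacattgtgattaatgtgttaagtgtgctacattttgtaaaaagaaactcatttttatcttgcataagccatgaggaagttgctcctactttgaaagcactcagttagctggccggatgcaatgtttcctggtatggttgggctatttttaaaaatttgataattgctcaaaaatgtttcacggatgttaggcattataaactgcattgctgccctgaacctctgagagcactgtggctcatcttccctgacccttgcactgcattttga
Gbp3 and Irgm1 hold 2 overlapping ISRE cores, Gbp7 holds 1 ISRE core and 2 GAS cores, and Tgtp1 holds 1 of each. The Ifi47 window holds neither, as does the window of a second Gbp3 start that is not shown. A core is a match of letters, not a site shown to be bound.

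**Figure D1:**
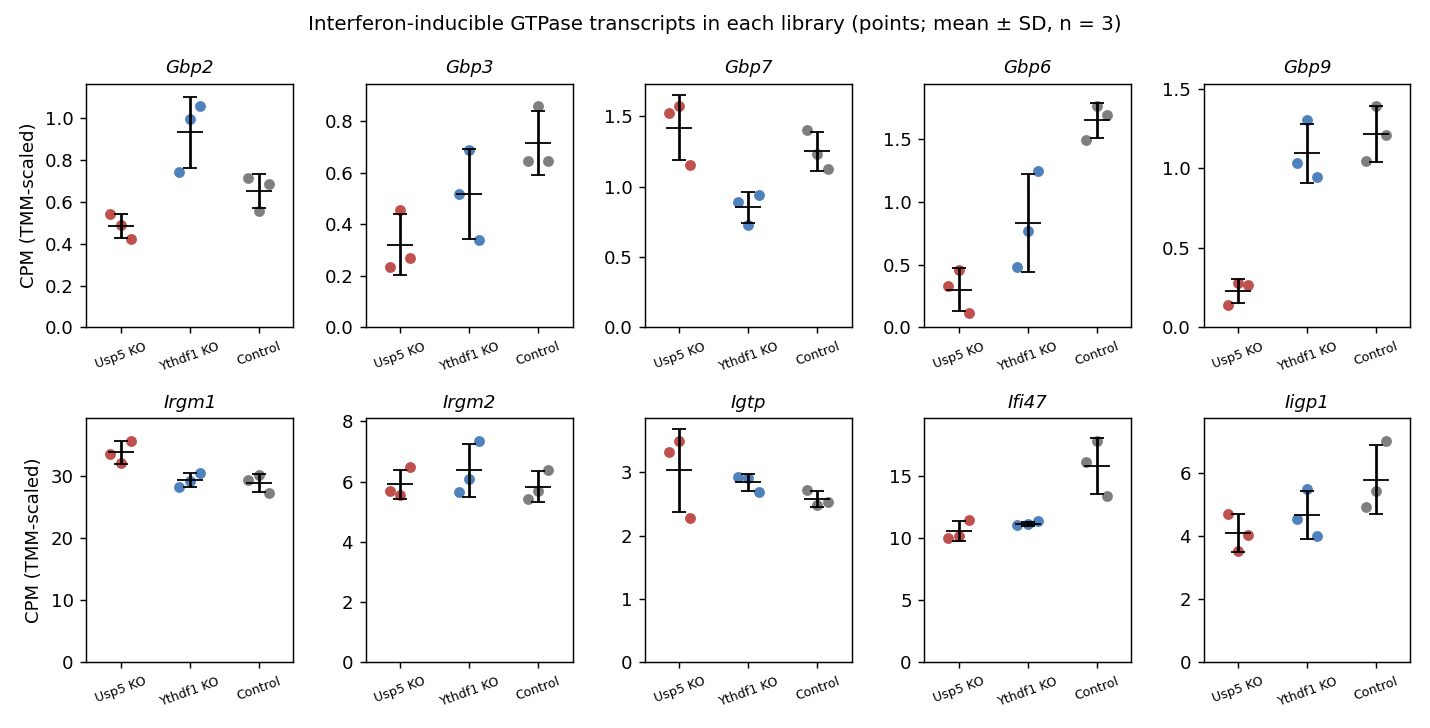
CPM (TMM-scaled, linear axes from 0) of the 10 GTPase genes in each of the 9 libraries, as points, with the mean and SD of 3 libraries as bars. Gbp6 and Gbp9 in the Usp5 knockout lie at 0.116 to 0.455 and 0.141 to 0.28 CPM, below every control library, while Irgm2 overlaps in all 3 groups.

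The Irg genes were the abundant part of the set. Per kilobase of the deposited gene length, control cells had Irgm1 at 13.1 ± 0.676 and Ifi47 at 10.5 ± 1.49 CPM per kb, then Iigp1 at 2.11 ± 0.400, Irgm2 at 1.67 ± 0.145 and Igtp at 1.29 ± 0.0598 (SD, n = 3). The Gbp genes followed, with Gbp6 at 0.572 ± 0.0494 CPM per kb, Gbp9 at 0.277 ± 0.0398, Gbp3 at 0.267 ± 0.0462, Gbp2 at 0.259 ± 0.0327 and Gbp7 at 0.223 ± 0.0246. Gbp9, Gbp3 and Gbp2 differed from their neighbours among these 3 by less than either SD, while every other pair of neighbours in this order differed by more than either SD. With the deposited effective length, the order of the leading pair turned, with Ifi47 at 15.7 and Irgm1 at 14.99 CPM per kb in control cells. Irgm1 alone made up 55.3% to 57.5% of the members' counts in Usp5 knockout cells, 49.3% to 50.6% in Ythdf1 knockout cells and 44.0% to 46.1% in control cells.

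Part of the Gbp family and Ifi47 were lower in Usp5 knockout cells, and the other members did not pass the test. By edgeR's quasi-likelihood test with Benjamini-Hochberg adjustment over all tested genes, 4 of the 10 members were lower at an adjusted p under 0.05 (Gbp3, Gbp6, Gbp9 and Ifi47), 0 were higher and 6 did not pass. Of all genes tested in this comparison, 19.8% were called, 9.96% higher and 9.8% lower; with library sizes alone in place of TMM, 1026 genes were higher and 1833 lower, against 1361 and 1339. The median log2 fold change was -0.446 over the members and -0.012 over all genes. With control replicate 3 left out, 4 members were again lower and 0 higher. In bulk RNA, fewer cells that make a transcript and less transcript in each cell cannot be told apart.

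Gbp9, a guanylate-binding protein gene of the chromosome 5 group, had 0.141, 0.28 and 0.27 CPM in Usp5 knockout cells, 1.04, 1.3 and 0.944 CPM in Ythdf1 knockout cells, and 1.05, 1.39 and 1.21 CPM in control cells. All 3 Usp5 knockout libraries lay far below the other 6, and the Ythdf1 knockout and control libraries overlapped. In log2 terms the Usp5 knockout lay -2.44 ± 0.32 (SE) from control, at 18.4% of its level, with an adjusted p of 0.00053 (edgeR). These values rest on 21 counts in the Usp5 knockout libraries together, 87 in the Ythdf1 knockout and 137 in control.

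Gbp6, of the same chromosome 5 group, had 0.329, 0.455 and 0.116 CPM in Usp5 knockout cells, 0.481, 0.766 and 1.25 CPM in Ythdf1 knockout cells, and 1.49, 1.76 and 1.69 CPM in control cells. The 3 groups did not overlap, with the Usp5 knockout lowest and the Ythdf1 knockout between. Its log2 fold change in the Usp5 knockout was -2.41 ± 0.42 (SE; adjusted p = 0.00295, edgeR). In the Ythdf1 knockout it was -0.98 ± 0.38, with an adjusted p of 0.0546 that did not pass; it passed in 9 of 17 alternative settings, 3 of which leave out a sample: Usp5 knockout replicate 2 (-1.02), Usp5 knockout replicate 3 (-0.98) or Ythdf1 knockout replicate 3 (-1.43). In GENCODE transcripts of GRCm38, 74.3% of the 31-base words of Gbp6 also occur in another gene, most in Gm43302, so that its counts depend on how reads were divided.

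Gbp3, on chromosome 3, had 0.235, 0.455 and 0.27 CPM in Usp5 knockout cells, 0.518, 0.689 and 0.34 CPM in Ythdf1 knockout cells, and 0.645, 0.859 and 0.644 CPM in control cells. Usp5 knockout and control libraries did not overlap, and the Ythdf1 knockout libraries overlapped both. The log2 fold change in the Usp5 knockout was -1.19 ± 0.36 (SE; adjusted p = 0.0444, edgeR). This call was lost when control replicate 1 or 2, Usp5 knockout replicate 1 or 3 or any 1 of Ythdf1 knockout replicates 1, 2 and 3 was left out, with log2 fold changes of -0.98 to -1.26 and adjusted p of 0.0502 to 0.173. It was also lost with no filter, with DESeq2 and with only the groups compared. Gbp3 in the Ythdf1 knockout had a log2 fold change of -0.48 (adjusted p = 0.284).

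Gbp2 and Gbp7, the other Gbp members of chromosome 3, did not pass against control in either knockout. Gbp2 had 0.54, 0.49 and 0.424 CPM in Usp5 knockout cells, 0.74, 0.996 and 1.06 CPM in Ythdf1 knockout cells, and 0.711, 0.557 and 0.684 CPM in control cells. Gbp7 had 1.53, 1.57 and 1.16 CPM in Usp5 knockout cells, 0.888, 0.728 and 0.944 CPM in Ythdf1 knockout cells, and 1.4, 1.23 and 1.13 CPM in control cells. Gbp2 was highest and Gbp7 lowest in the Ythdf1 knockout, with no overlap with either other group. Against control, the log2 fold changes of Gbp2 were -0.41 in the Usp5 knockout and 0.52 in the Ythdf1 knockout (adjusted p of 0.326 and 0.126), and those of Gbp7 were 0.18 and -0.56 (adjusted p of 0.603 and 0.0671, edgeR). Gbp7 passed in the Ythdf1 knockout with library sizes alone, at -0.71 (0.0284).

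Ifi47, also called Irg47, was the Irg member that passed, and it did so in both knockouts. It had 9.98, 10.2 and 11.4 CPM in Usp5 knockout cells, 11.03, 11.1 and 11.3 CPM in Ythdf1 knockout cells, and 16.1, 17.8 and 13.4 CPM in control cells. Every knockout library lay below every control library, and control replicate 3 was the lowest control. The log2 fold change was -0.59 ± 0.12 in the Usp5 knockout (adjusted p = 0.00621) and -0.50 ± 0.12 in the Ythdf1 knockout (SE; adjusted p = 0.00562, edgeR). Both comparisons use the same control libraries. With control replicate 3 left out the log2 fold changes were -0.69 in the Usp5 knockout and -0.60 in the Ythdf1 knockout, and both calls held in all 17 alternative settings.

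Irgm1, Irgm2 and Igtp, the regulatory Irg genes, did not pass in either knockout. Irgm1 had 33.7, 32.2 and 35.8 CPM in Usp5 knockout cells, 28.3, 29.2 and 30.6 CPM in Ythdf1 knockout cells, and 29.5, 30.2 and 27.3 CPM in control cells. The Usp5 knockout libraries lay just above the other 6, with a log2 fold change over control of 0.22 ± 0.08 (adjusted p = 0.0711, edgeR; 0.0351 with DESeq2). Irgm2 averaged 5.91 ± 0.494 CPM in Usp5 knockout cells, 6.37 ± 0.887 CPM in Ythdf1 knockout cells and 5.84 ± 0.505 CPM in control cells (SD, n = 3), and the groups overlapped. Igtp averaged 3.03 ± 0.66 CPM in Usp5 knockout cells, 2.84 ± 0.136 CPM in Ythdf1 knockout cells and 2.58 ± 0.119 CPM in control cells, again with overlap. The log2 fold changes of Irgm2 and Igtp over control lay between 0.02 and 0.24 in both knockouts, with adjusted p of 0.39 to 0.94, and that of Irgm1 in the Ythdf1 knockout was 0.02 (0.863). With library sizes alone these 3 values in the Ythdf1 knockout are negative, as is that of Irgm2 in the Usp5 knockout.

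Iigp1, the effector also called Irga6, had 4.72, 3.53 and 4.04 CPM in Usp5 knockout cells, 4.55, 5.51 and 4.004 CPM in Ythdf1 knockout cells, and 4.93, 5.43 and 7.04 CPM in control cells. The Usp5 knockout libraries lay below all control libraries, and the Ythdf1 knockout libraries overlapped both groups. The log2 fold change was -0.49 ± 0.18 in the Usp5 knockout (adjusted p = 0.0876; 0.0461 with library sizes alone) and -0.30 ± 0.18 in the Ythdf1 knockout (adjusted p = 0.207, edgeR).

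In the Ythdf1 knockout, 1 of the 10 members was lower, Ifi47, 0 were higher and 9 did not pass (edgeR). There 46.5% of all genes were called, 23.7% higher and 22.8% lower, and the median log2 fold change was -0.225 over the members and 0.021 over all genes. The members' share called was below that of all genes. With library sizes alone, 2159 genes were higher and 4185 lower, against 3231 and 3119, the median over all genes was -0.121, and 3 members were lower. With control replicate 3 left out, 1 member was lower.

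Set directly against each other, the knockouts differed in 4 of the 10 members: Gbp7 was higher, and Gbp2, Gbp6 and Gbp9 were lower, in Usp5 knockout than in Ythdf1 knockout cells. Here 48.5% of all genes were called, 23.3% higher and 25.2% lower in the Usp5 knockout. The members' share called, 40%, was below that of all genes. The split was 2 members higher and 3 lower with library sizes alone. The log2 fold change was -2.29 ± 0.33 for Gbp9 (SE; adjusted p = 0.000325), -1.43 ± 0.45 for Gbp6 (0.0237), -0.92 ± 0.27 for Gbp2 (0.0174) and 0.74 ± 0.23 for Gbp7 (0.0222, edgeR). Gbp9 passed in all 17 alternative settings. The call of Gbp6 was lost without Usp5 knockout replicate 1 (-1.47), Usp5 knockout replicate 3 (-1.10) or Ythdf1 knockout replicate 3 (-0.995). That of Gbp2 was lost without Usp5 knockout replicate 2 (-0.89) or Ythdf1 knockout replicates 2 (-0.84) or 3 (-0.80), and with no filter. That of Gbp7 was lost without Usp5 knockout replicates 1 (0.71) or 2 (0.69) or Ythdf1 knockout replicates 1 (0.79) or 2 (0.66), and with no filter. Irgm1 had 0.21 ± 0.08 and did not pass (0.0533), but passed in 7 of 17 alternative settings, 2 of which leave out a sample, control replicate 3 (0.21) or Usp5 knockout replicate 2 (0.27). Ifi47, which fell in each knockout against control, had a log2 fold change of -0.08 ± 0.12 between them (adjusted p = 0.583).

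Further genes of the GTPase families were examined as relatives. Of 28 named, 25 were in the table and 17 were tested. In the Usp5 knockout 7 of the 17 were lower and 0 higher, in the Ythdf1 knockout 5 were lower and 1 higher, and between the knockouts 8 were lower and 3 higher in the Usp5 knockout (edgeR). The share called was 41.2% against 19.8% of all genes in the Usp5 knockout. It was 35.3% against 46.5% in the Ythdf1 knockout, below that of all genes, and 64.7% against 48.5% between the knockouts. Their median log2 fold change was -0.13 in the Usp5 knockout, -0.085 in the Ythdf1 knockout and -0.064 between them. The count called in the Usp5 knockout was 10, 2 higher and 8 lower, with control replicate 3 left out. In the Ythdf1 knockout 6 were lower and 0 higher with library sizes alone.

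The remaining tested Gbp genes of chromosome 5, Gbp4, Gbp8 and Gbp10, all fell in the Usp5 knockout. Gbp4 had 0.047, 0.14 and 0.0385 CPM in Usp5 knockout cells, 0.555, 0.613 and 0.831 CPM in Ythdf1 knockout cells, and 0.534, 0.813 and 0.725 CPM in control cells, -3.17 ± 0.47 in log2 terms between Usp5 knockout and control (adjusted p = 0.00104, edgeR). Gbp8 had 3 counts in the Usp5 knockout libraries together, 74 in the Ythdf1 knockout and 91 in control. Scaled for depth, it was 26.1-fold lower in the Usp5 knockout than in control (exact 95% interval 8.65 to 129, counting error only; adjusted p = 0.000464, edgeR). Gbp10 was at 0, 0 and 4 counts in Usp5 knockout cells, 4, 14 and 5 counts in Ythdf1 knockout cells, and 23, 22 and 14 counts in control cells, -3.52 ± 0.85 in log2 terms between Usp5 knockout and control (adjusted p = 0.0166, edgeR). The Gbp10 call was lost without control replicate 2 (-3.54), Usp5 knockout replicate 1 (-2.77) or Usp5 knockout replicate 2 (-3.03). With Usp5 knockout replicate 3 left out, which holds all of its counts in that group, the fitted value was -7.13 and depends on the prior count. Gbp10 shares 80.8% of its 31-base words with Gbp6. None of Gbp4, Gbp8 and Gbp10 passed in the Ythdf1 knockout, with log2 fold changes of -0.04, 0.15 and -0.85.

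Summed by chromosome, a description chosen after the values were seen and given no test, the 6 Gbp genes of chromosome 5 held 0.688 ± 0.224 CPM in Usp5 knockout cells, 3.82 ± 0.766 CPM in Ythdf1 knockout cells and 4.94 ± 0.552 CPM in control cells (SD, n = 3). Gbp11 contributed 0 counts to these sums. The 5 Gbp genes of chromosome 3 held 2.22 ± 0.342 CPM in Usp5 knockout cells, 2.39 ± 0.194 CPM in Ythdf1 knockout cells and 2.66 ± 0.122 CPM in control cells. The chromosome 5 sums of the Usp5 knockout, 0.54 to 0.945 CPM, lay below all control libraries at 4.31 to 5.35 CPM, while those of chromosome 3 were much closer. The 10 tested genes flanking the chromosome 5 group, 5 on each side, had log2 fold changes of -1.08 to 0.42 in the Usp5 knockout, of which 1 was higher, Spp1, and 0 lower. Of the same 10 genes, 2 were higher and 5 lower in the Ythdf1 knockout. Over all genes tested, 9.96% were higher and 9.8% lower in the Usp5 knockout. In the Ythdf1 knockout the shares over all genes were 23.7% higher and 22.8% lower. Of the 10 flanking genes of chromosome 3, 1 was higher and 1 lower in the Usp5 knockout. In the Ythdf1 knockout 2 of these were higher and 5 lower, as on chromosome 5.

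**Figure D2:**
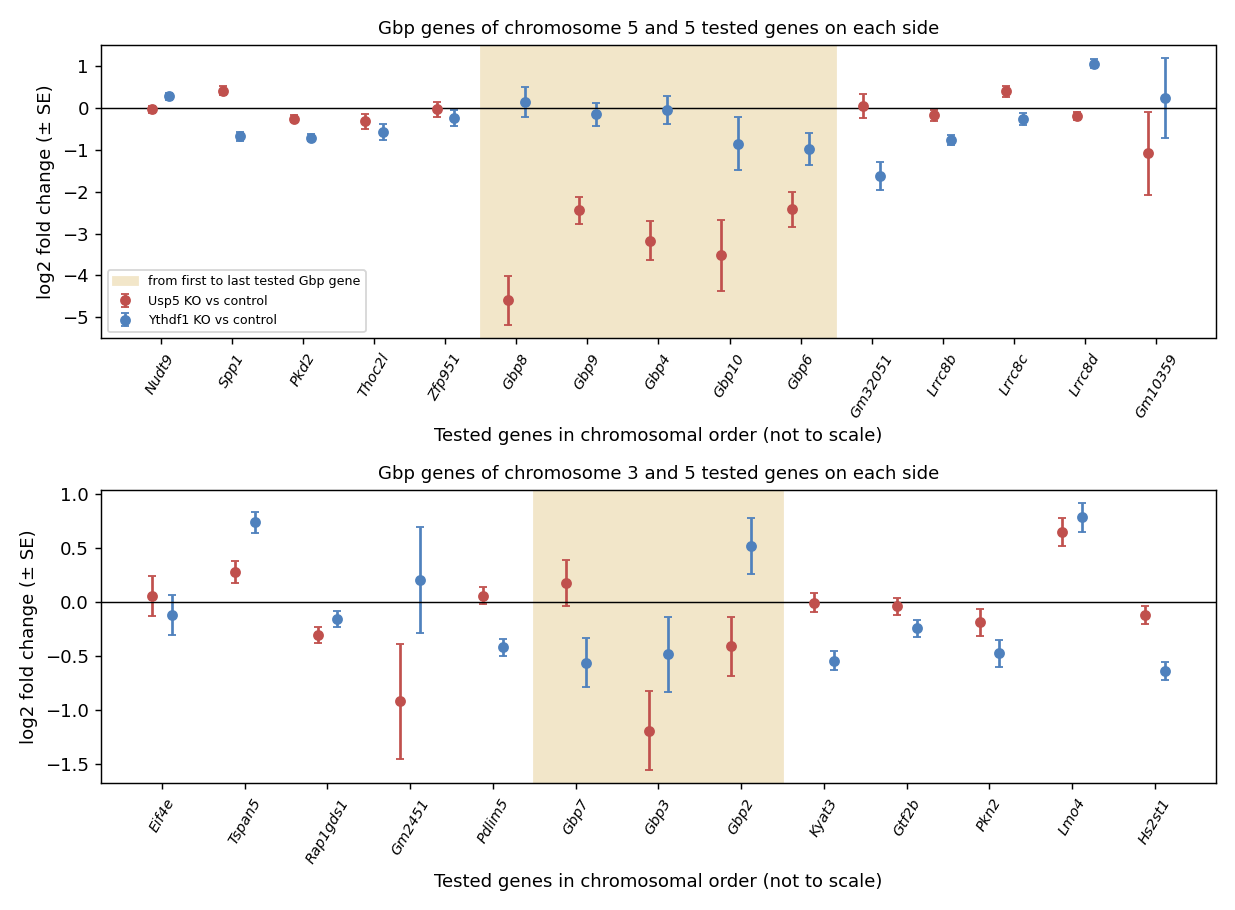
Log2 fold change over control (points, bars ± SE) of the tested Gbp genes of chromosome 5 (top) and chromosome 3 (bottom) and 5 tested genes on each side, in chromosomal order and not to scale, for the Usp5 knockout and the Ythdf1 knockout. The 5 tested Gbp genes of chromosome 5 lie at -2.41 or below in the Usp5 knockout, and the flanking genes lie between -1.08 and 0.42. The Gbp8 value rests on 3 counts in the Usp5 knockout.

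Among the Irg relatives, Tgtp1 and Tgtp2, near-identical effector genes on chromosome 11, were lower in the Usp5 knockout. Tgtp1 had 2.16, 1.99 and 1.85 CPM in Usp5 knockout cells, 4.7, 4.06 and 3.47 CPM in Ythdf1 knockout cells, and 4.36, 3.95 and 4.15 CPM in control cells. The Usp5 knockout libraries lay below the other 6, with a log2 fold change over control of -1.05 ± 0.16 (adjusted p = 0.00128, edgeR). Tgtp2 averaged 0.481 ± 0.152 CPM in Usp5 knockout cells, 1.64 ± 0.423 CPM in Ythdf1 knockout cells and 1.43 ± 0.525 CPM in control cells, a log2 difference of -1.62 ± 0.36 between Usp5 knockout and control (adjusted p = 0.0112), which did not pass without control replicate 2 (-1.29) or Usp5 knockout replicate 1 (-1.34). Tgtp1 shares 83.2% of its 31-base words with Tgtp2, so reads can be divided between them either way. Neither passed in the Ythdf1 knockout, at log2 fold changes of -0.03 and 0.18.

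Gvin1 and Gvin2, very large interferon-inducible GTPases, were also lower in the Usp5 knockout, and Gvin1 in both. Gvin1 had 1.41, 1.61 and 1.23 CPM in Usp5 knockout cells, 3.81, 9.23 and 5.86 CPM in Ythdf1 knockout cells, and 12.1, 14.6 and 20.4 CPM in control cells. The 3 groups did not overlap, with log2 fold changes of -3.46 ± 0.33 in the Usp5 knockout (adjusted p = 5.94e-05) and -1.31 ± 0.29 in the Ythdf1 knockout (adjusted p = 0.00392, edgeR). Gvin2 had 0.0705, 0.385 and 1.31 CPM in Usp5 knockout cells, 5.59, 4.1 and 4.46 CPM in Ythdf1 knockout cells, and 6.49, 5.87 and 7.93 CPM in control cells. Its Usp5 knockout libraries varied widely but all lay below the rest, with a log2 fold change of -3.66 ± 0.56 (adjusted p = 0.00134), against -0.51 ± 0.45 in the Ythdf1 knockout (adjusted p = 0.369; 0.0288 with only the groups compared). Of the 31-base words of Gvin1, 99.7% occur in another gene, so its level is uncertain. The share for Gvin2 was not measured, so its level may be uncertain too.

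The other relatives that passed did so in the Ythdf1 knockout. Mx1, of the interferon-induced dynamin-like antiviral GTPases, has the deposited gene type of a polymorphic pseudogene. It averaged 1.08 ± 0.222 CPM in Usp5 knockout cells, 0.214 ± 0.118 CPM in Ythdf1 knockout cells and 0.791 ± 0.171 CPM in control cells. Its log2 fold change was -1.86 ± 0.40 in the Ythdf1 knockout (adjusted p = 0.00383) and 2.32 in the Usp5 knockout against the Ythdf1 knockout (adjusted p = 0.00093, edgeR). Dnm1l, the mitochondrial fission GTPase, fell by 0.94 on the log2 scale in the Ythdf1 knockout (adjusted p = 0.00073) and the atlastin gene Atl3 by 0.32 (0.00814). Atl1, another atlastin, had a log2 fold change of -0.46 (0.0305), lost without control replicate 2 or 3 or Ythdf1 knockout replicate 2 or 3 (-0.40 to -0.49, adjusted p of 0.0558 to 0.0785) and with no filter. Irgq, an Irg relative that lacks the usual GTPase motifs, had a log2 fold change of 0.27 (0.0265), lost without control replicate 2 or 3, Usp5 knockout replicate 1 or 2 or Ythdf1 knockout replicate 1 or 3 (0.17 to 0.27, adjusted p of 0.0572 to 0.186), and with library sizes alone, no filter or only the groups compared.

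**Figure D3:**
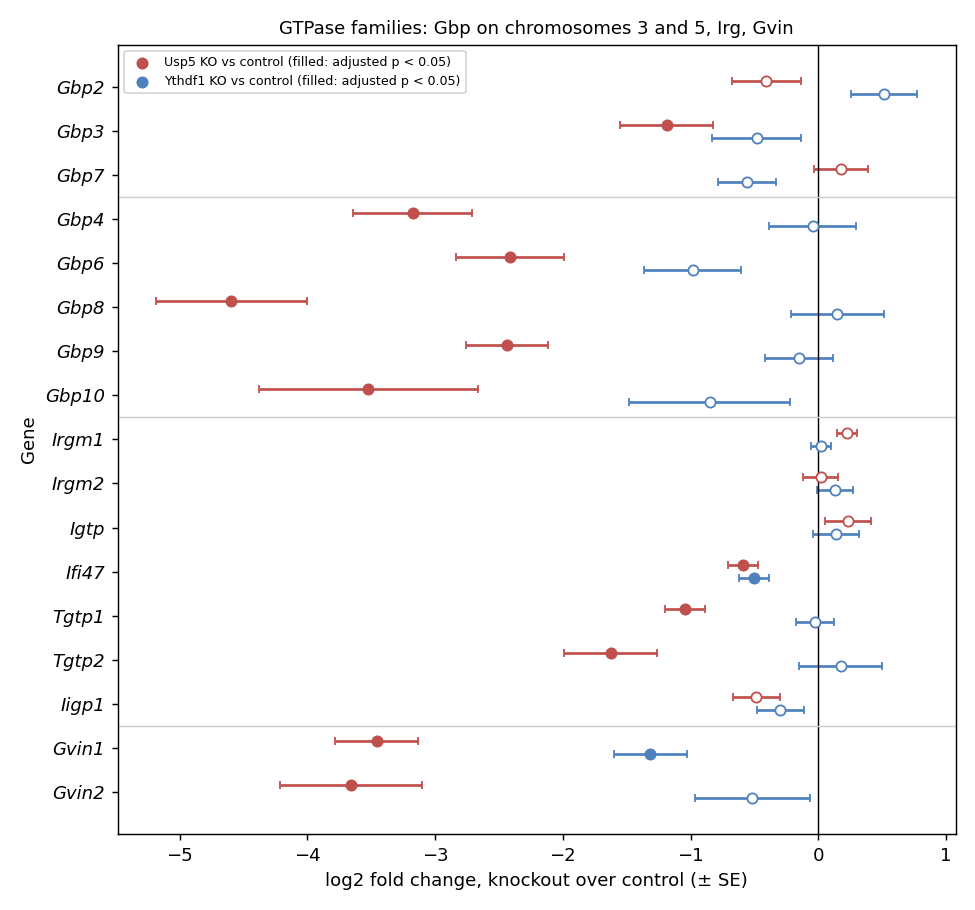
Log2 fold change over control (points, bars ± SE; filled where the adjusted p is under 0.05) of Gbp, Irg and Gvin genes in the Usp5 knockout and the Ythdf1 knockout. The chromosome 5 Gbp genes and both Gvin genes lie at -2.41 or below in the Usp5 knockout, while Irgm1, Irgm2 and Igtp lie between 0.02 and 0.24 in both. The Gbp8 value rests on 3 counts in the Usp5 knockout.

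The pathway that induces these GTPases, other genes that interferon-gamma induces and genes whose products act with the GTPases were described with 8 lists. They hold 93 genes, of which 92 were in the table and 75 tested. In the Usp5 knockout 8 of the 75 were higher and 17 lower (edgeR), 33.3% called against 19.8% of all genes. Other interferon-gamma induced genes held 8 of these lower calls and 1 of the higher. Receptors held 2 lower and 2 higher, kinases and transcription factors 1 and 2, and negative regulators 1 and 2. Autophagy genes held 3 lower and 1 higher, and inflammasome genes 2 and 0. In the Ythdf1 knockout 24 were higher and 10 lower, and the share called, 45.3%, was near the 46.5% of all genes. With library sizes alone 18 were higher and 17 lower there, with a median log2 fold change of 0.005. Between the knockouts 10 were higher and 30 lower in the Usp5 knockout, 53.3% called against 48.5% of all genes. The median log2 fold change was -0.109 in the Usp5 knockout, 0.144 in the Ythdf1 knockout and -0.191 between them. Without control replicate 3 the count in the Usp5 knockout was 38 in place of 25. By list, the share called in the Usp5 knockout was 57.1% of receptors, 21.4% of kinases and transcription factors and 42.9% of negative regulators. It was 30.8% of autophagy, 0% of prenylation and 50% of inflammasome genes. In the same order the shares in the Ythdf1 knockout were 28.6%, 28.6%, 42.9%, 69.2%, 50% and 0%. The lists are small, and the shares over all genes are those given above.

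Of 7 ligand genes 1 was tested, and Ifng, Ifnb1, Ifnl2, Ifnl3 and Il12a had 0 counts in every library. Il18, a cytokine that induces interferon-gamma in lymphocytes, averaged 3.94 ± 0.464 CPM in Ythdf1 knockout cells and 2.25 ± 0.586 CPM in control cells, a log2 fold change of 0.82 ± 0.27 (adjusted p = 0.0276, edgeR) that did not pass without control replicate 1 or 2 or Ythdf1 knockout replicate 1 or 2 (0.63 to 0.84, adjusted p of 0.0603 to 0.105).

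Of the 7 receptor genes, 2 were higher and 2 lower in the Usp5 knockout. Ifngr2, the signalling chain of the interferon-gamma receptor, had 20.01, 20.3 and 22.1 CPM in Usp5 knockout cells, 37.6, 35.04 and 38.6 CPM in Ythdf1 knockout cells, and 41.6, 37.7 and 42.95 CPM in control cells. The Usp5 knockout libraries were all lower than the rest, with a log2 fold change over control of -0.97 ± 0.09 (adjusted p = 3.87e-05, edgeR), against -0.14 ± 0.08 in the Ythdf1 knockout (adjusted p = 0.208; 0.0247 with library sizes alone). Ifngr1, the ligand-binding chain, averaged 89.2 ± 4.67 CPM in Usp5 knockout cells, 103.8 ± 3.15 CPM in Ythdf1 knockout cells and 104.4 ± 2.02 CPM in control cells, with log2 fold changes of -0.23 ± 0.07 (adjusted p = 0.0408) and -0.01 ± 0.07 (0.933). The Ifngr1 call in the Usp5 knockout was lost without control replicate 1 or 2, Usp5 knockout replicate 1 or 2, or any of Ythdf1 knockout replicates 1, 2 and 3 (-0.20 to -0.24, adjusted p of 0.0581 to 0.14). Ifnlr1, of the interferon-lambda receptor, rose by 0.72 ± 0.08 in the Usp5 knockout (log2, adjusted p = 0.000259). Ifnar2, of the type I interferon receptor, had a log2 fold change of 0.32 ± 0.07 (0.0126), lost without control replicate 1 or Usp5 knockout replicate 1 (0.30 and 0.28, adjusted p of 0.0508 and 0.0582). In the Usp5 knockout 1 receptor gene was higher and 2 lower with library sizes alone. Of the receptor genes, 1 was higher and 1 lower in the Ythdf1 knockout, against 0 higher and 4 lower with library sizes alone. Ifnar1, the other type I receptor chain, fell by 0.48 on the log2 scale (adjusted p = 0.00149). Tnfrsf1a, the main TNF receptor, had 0.24 ± 0.07 (0.0149), lost without control replicate 2 or Ythdf1 knockout replicate 1 or 3 (0.19 to 0.21, adjusted p of 0.0635 to 0.0986).

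Of 14 tested kinase and transcription factor genes, 2 were higher and 1 lower in the Usp5 knockout, and 2 were higher and 2 lower in the Ythdf1 knockout. With library sizes alone 2 were higher and 3 lower in the Usp5 knockout, and 1 was higher and 5 lower in the Ythdf1 knockout. Jak2 had 76.7, 92.2 and 75.02 CPM in Ythdf1 knockout cells against 176.3, 193.3 and 212.1 CPM in control cells, with no overlap and a log2 fold change of -1.25 ± 0.12 (adjusted p = 3.39e-05, edgeR). In Usp5 knockout cells Jak2 averaged 177.0 ± 21.2 CPM, a log2 fold change over control of -0.13 ± 0.12 (adjusted p = 0.461). Irf8, an interferon-induced transcription factor, rose by 0.56 ± 0.09 in the Usp5 knockout (log2, adjusted p = 0.00221). Irf8 in the Ythdf1 knockout had 0.29 ± 0.09 (0.0283), lost without control replicate 3, Usp5 knockout replicate 1 or 2, or Ythdf1 knockout replicate 1 or 3 (0.21 to 0.25, adjusted p of 0.0624 to 0.162). Irf2, which competes with IRF1 for the same sites, had 0.72 ± 0.20 in the Usp5 knockout (0.0309), lost without control replicate 1 or 2 or Usp5 knockout replicate 2 (0.53 to 0.62, adjusted p of 0.106 to 0.126). Rela, an NF-kB subunit, rose by 0.77 ± 0.12 in the Ythdf1 knockout (log2, adjusted p = 0.000583). Nfkb1, another subunit, had -0.30 ± 0.06 in the Ythdf1 knockout (0.00356) and -0.29 ± 0.06 in the Usp5 knockout (0.0113), and its Usp5 knockout value did not pass without control replicate 1 (-0.27, adjusted p = 0.0513).

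Jak1, Irf1, Irf9 and Nlrc5 did not pass in either knockout (edgeR). Irf1 had 34.9, 34.1 and 32.3 CPM in Usp5 knockout cells, 40.5, 32.6 and 38.6 CPM in Ythdf1 knockout cells, and 42.6, 43.8 and 38.1 CPM in control cells. The Usp5 knockout libraries of Irf1 lay below all control libraries, with a log2 fold change of -0.30 ± 0.10 (adjusted p = 0.0561); it passed without control replicate 3 (-0.36) and without Ythdf1 knockout replicate 2 (-0.30), and also with library sizes alone (0.0296) and DESeq2 (0.03). Irf1 in the Ythdf1 knockout had -0.16 (0.208; 0.0398 with library sizes alone). Jak1 had -0.24 in the Usp5 knockout and -0.22 in the Ythdf1 knockout (adjusted p of 0.0805 and 0.064), and passed in the Ythdf1 knockout without control replicate 1 (-0.27), Usp5 knockout replicate 1 (-0.25) or Ythdf1 knockout replicate 2 (-0.29). Jak1 also passed there with library sizes alone (0.0059), DESeq2 (0.045) and only the groups compared (0.0444), and in the Usp5 knockout with library sizes alone (0.024). Irf9 had 0.06 and 0.25 (0.736 and 0.0816) and passed in the Ythdf1 knockout without control replicate 3 (0.31). Nlrc5, the transactivator of MHC class I genes, had -0.12 and -0.14 (0.397 and 0.241).

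Some pathway calls also depended on other settings. Ifngr1 in the Usp5 knockout and Irf8 and Tnfrsf1a in the Ythdf1 knockout did not pass with no filter, nor did Ifnar2 in the Usp5 knockout. Ifnar2, Irf8, Tnfrsf1a and, among the prenylation genes below, Fntb in the Ythdf1 knockout did not pass with library sizes alone. Irf2, Nfkb1, Ifngr1, Ifnar2 and Atg16l1 in the Usp5 knockout and Irf8 in the Ythdf1 knockout did not pass in a fit of only the groups compared.

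**Figure D4:**
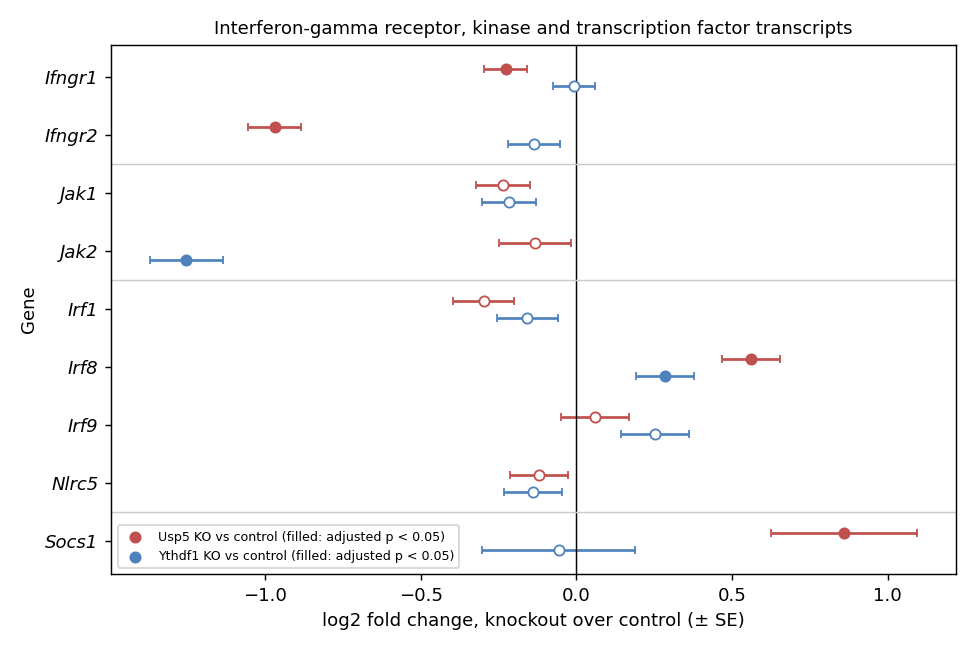
Log2 fold change over control (points, bars ± SE; filled where the adjusted p is under 0.05) of interferon-gamma receptor chains, kinases, transcription factors and Socs1 in the Usp5 knockout and the Ythdf1 knockout. Ifngr2 lies at -0.97 in the Usp5 knockout and Jak2 at -1.25 in the Ythdf1 knockout.

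Of the 7 negative regulators of the pathway, 2 were higher and 1 lower in each knockout. Usp18, which restrains type I interferon signalling, rose in both, by 0.43 ± 0.09 in the Usp5 knockout (log2, adjusted p = 0.00738) and 0.71 ± 0.09 in the Ythdf1 knockout (0.000163, edgeR), against the same control libraries. Socs3, an inhibitor of JAK kinases, fell in the Usp5 knockout to 17.1 ± 1.31 CPM, against 31.6 ± 2.47 CPM in control cells (log2 fold change -0.88 ± 0.11, adjusted p = 0.000462). Socs3 in the Ythdf1 knockout had a log2 fold change of -0.33 ± 0.11 (0.0343), lost without control replicate 1 or 2 or Ythdf1 knockout replicate 2 (-0.26 to -0.32, adjusted p of 0.0729 to 0.107). Socs1, the main inhibitor of interferon-gamma signalling, averaged 3.58 ± 0.956 CPM in Usp5 knockout cells, 1.91 ± 0.388 CPM in Ythdf1 knockout cells and 1.99 ± 0.26 CPM in control cells. Its log2 fold change in the Usp5 knockout was 0.86 ± 0.24 (0.0283), lost without control replicate 1 or 2 or Usp5 knockout replicate 1 or 2 (0.66 to 0.91, adjusted p of 0.0695 to 0.12), and in the Ythdf1 knockout -0.06 ± 0.25 (0.867). Cish, another SOCS family gene, rose by 1.24 ± 0.14 in the Ythdf1 knockout (8.91e-05).

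Of 23 tested other interferon-gamma induced genes, 1 was higher and 8 lower in the Usp5 knockout, and 8 were higher and 4 lower in the Ythdf1 knockout (edgeR). The share called was 39.1% against 19.8% of all genes in the Usp5 knockout. In the Ythdf1 knockout it was 52.2%, near the 46.5% of all genes. Cxcl10, a T cell chemokine, had 1.78, 2.24 and 2.35 CPM in Usp5 knockout cells, 22.6, 27.8 and 24.6 CPM in Ythdf1 knockout cells, and 9.31, 8.1 and 14.1 CPM in control cells. The groups did not overlap, with the Usp5 knockout lowest and the Ythdf1 knockout highest, at log2 fold changes over control of -2.30 ± 0.22 (adjusted p = 5.71e-05) and 1.27 ± 0.19 (0.000465). Upp1, uridine phosphorylase, Icam1, an adhesion molecule, and Gch1, which starts tetrahydrobiopterin synthesis, had log2 fold changes of -1.57, -1.04 and -1.02 in the Usp5 knockout (adjusted p of 0.000244, 4.85e-05 and 0.00345). The same 3 genes had, in the Ythdf1 knockout, 0.74, 0.77 and 0.98 (adjusted p of 0.00495, 0.00015 and 0.00135). Ifi204, a DNA sensor of the p200 family, fell by 1.26 in the Ythdf1 knockout (log2, adjusted p = 0.00174), and Ifi30, a lysosomal thiol reductase, rose by 0.77 (0.00392). Ifi30 was also the gene that rose in the Usp5 knockout, by 0.77 (log2, 0.0102), named there after its values were seen and against the same control libraries.

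The autophagy conjugation genes, whose products place Irg and Gbp proteins on vacuoles, had 8 of 13 higher and 1 lower in the Ythdf1 knockout (edgeR), where 23.7% of all genes were higher and 22.8% lower. The counts were 7 higher and 2 lower with library sizes alone. Sqstm1, the receptor p62, averaged 457.2 ± 51.2 CPM in Usp5 knockout cells, 1712 ± 137.1 CPM in Ythdf1 knockout cells and 667.5 ± 93.7 CPM in control cells. Its log2 fold change was 1.36 ± 0.13 in the Ythdf1 knockout (adjusted p = 3.2e-05) and -0.55 ± 0.12 in the Usp5 knockout (0.0123), the Usp5 knockout call being lost without control replicate 1 or 2 or Usp5 knockout replicate 2 (-0.47 to -0.50, adjusted p of 0.0505 to 0.0561). Map1lc3a and Gabarapl1, ubiquitin-like proteins that are joined to membranes, rose by 1.26 and 0.87 in the Ythdf1 knockout (log2, adjusted p of 0.000145 and 2.06e-05). Atg3, the enzyme that conjugates them to lipid, was the gene that fell there, at 35.1 ± 0.751 CPM in Ythdf1 knockout cells against 101.1 ± 17.1 CPM in control cells (log2 fold change -1.52 ± 0.11, adjusted p = 7.87e-06). In the Usp5 knockout 1 of the 13 was higher and 3 lower. There Gabarapl1 fell by 0.36 (log2, 0.00739). Map1lc3a had 0.63 ± 0.15 (0.0166), lost without control replicate 2 or Usp5 knockout replicate 2 (0.54 and 0.48, adjusted p of 0.079 and 0.0665). Atg16l1, which sets the site of conjugation, had -0.32 ± 0.09 (0.038), lost without control replicate 1 or 2, Usp5 knockout replicate 1 or 2, or Ythdf1 knockout replicate 1 or 3 (-0.27 to -0.34, adjusted p of 0.0552 to 0.143).

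Of the 6 prenylation genes, whose enzymes attach and trim the lipid anchor that some GBPs carry, 0 passed in the Usp5 knockout (edgeR), and 2 were higher and 1 lower in the Ythdf1 knockout (1 and 1 with library sizes alone). Rce1 and Fntb rose by 0.65 and 0.35 in the Ythdf1 knockout (log2, adjusted p of 0.00592 and 0.00704). Zmpste24 had -0.28 ± 0.10 (0.0415), lost without control replicate 2 or 3 or any of Ythdf1 knockout replicates 1, 2 and 3 (-0.21 to -0.33, adjusted p of 0.0502 to 0.104). Of the 4 tested inflammasome partners of GBPs, 2 were lower in the Usp5 knockout and 0 passed in the Ythdf1 knockout. Casp4, the caspase that senses cytosolic lipopolysaccharide (Caspase-11), averaged 2.32 ± 0.453 CPM in Usp5 knockout cells, 6.27 ± 0.306 CPM in Ythdf1 knockout cells and 6.42 ± 1.52 CPM in control cells, -1.47 ± 0.20 in log2 terms between Usp5 knockout and control (adjusted p = 0.000662, edgeR). Casp1, which processes interleukin-1 beta, fell by 0.86 (log2, 0.00795).

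The genes whose levels ran most like those of the Gbp and the Irg member with the highest mean CPM over all 9 libraries, not corrected for length, were found by Pearson's r of log2 CPM over those libraries, as a description that also carries the difference between groups. For Gbp7 they were Sipa1 (0.976), Ccnd1 (0.973), Ankrd37 (0.969), Traf3ip1 (0.962) and Scml4 (0.959). For Irgm1 they were Dnajb11 (0.956), Dqx1 (0.948), Cdhr2 (0.939), Itprip (0.9385) and Cinp (0.9345). None of the other members was among them.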

How the data were processed

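Poly(A) RNA from 9 samples was sequenced, and estimated counts per gene, deposited by the authors as whole numbers, were used as they stand. The submitters' processing notes name fastp 0.23.2, STAR 2.7.10a, Salmon 1.9.0 and GRCm39; their roles, the annotation release and any use of strand are not given in the sources used here. Near-identical and overlapping genes can therefore share reads. Columns were matched to samples by their descriptions, and gene lengths are those of the deposited table.

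The quasi-likelihood test of edgeR 4.0.16 (R 4.3.3) was applied after filterByExpr and TMM scaling, with the 9 samples in 1 model of group. Genes counted as called had a Benjamini-Hochberg adjusted p under 0.05 over 13661 genes. The code was tested on simulated data. SE is the size of the log2 fold change divided by the square root of F. CPM are scaled by TMM; this was chosen after CPM on plain library sizes were seen to differ in direction from the fit for Irgm1. The samples held 24760877 to 42989715 counts; the Poisson interval of Gbp8 covers counting error only.

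The members, the relatives, the pathway and marker lists and the tests were chosen with earlier results of these data known. All members were named, relatives that passed, up to 4 called genes per pathway list with the largest change, and further pathway genes whether or not they passed, 1 of which is not reported here. Alternatives per gene were RLE scaling, library sizes alone, no filter, a filter of CPM of at least 1 in at least 3 samples, DESeq2 1.42.0, limma-voom (limma 3.58.1), a replicate block, only the groups compared, and leaving out each sample in turn. They are reported for the genes and comparisons named in the text, a set narrowed after the alternatives of a wider set had been seen, in which most changes of sign were of values near 0 that did not pass. The 31-base words and the motif search used reference transcripts and RefSeq promoters of GRCm38, another build than that of the counts.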

Additional observations from a re-analysis of the deposited data

How the results depend on the processing

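The calls of Gbp6, Gbp9 and Ifi47 in the Usp5 knockout and of Ifi47 in the Ythdf1 knockout held in all 17 alternatives. Gbp3 in the Usp5 knockout was lost in 10: 7 leave-one-out fits, no filter (adjusted p = 0.065), DESeq2 (0.05) and only the groups compared (0.0621). The stricter filter removed Gbp2, Gbp3, Gbp4, Gbp8 and Gbp10, so that alternative did not test them. The cause of these changes was not tested, and low counts limit the Gbp genes.

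The count of all genes called in the Usp5 knockout was 1756 with only the groups compared and 1494 to 4371 with 1 sample left out, the highest without control replicate 3. The count of relatives there was 4 under the stricter filter, which tests fewer genes. Pathway genes there came to 17 to 38 with 1 sample left out. Members called in the Ythdf1 knockout came to 3 with library sizes alone and 2 with no filter, the stricter filter, DESeq2, limma-voom or only the groups compared, and 1 to 2 with 1 sample left out. Members called between the knockouts came to 2 with no filter and 2 to 5 with 1 sample left out.

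Values near 0 that did not pass changed sign. With library sizes alone the log2 fold changes were -0.0618 for Irgm2 and -0.0223 for Irf9 in the Usp5 knockout, and -0.125 for Irgm1, -0.0107 for Irgm2 and -0.0065 for Igtp in the Ythdf1 knockout. Irgm1 in the Ythdf1 knockout was -0.0306 with no filter and -0.0198 with only the groups compared. With 1 sample left out, the ranges in the Usp5 knockout were -0.0492 to 0.0852 for Irgm2 and -0.0038 to 0.117 for Irf9. In the Ythdf1 knockout they were -0.0417 to 0.0476 for Irgm1, -0.0169 to 0.197 for Irgm2, -0.265 to 0.103 for Gbp4, -0.131 to 0.402 for Gbp8, -0.172 to 0.0475 for Tgtp1, -0.0791 to 0.502 for Tgtp2, -0.0675 to 4e-04 for Ifngr1 and -0.213 to 0.0678 for Socs1. Between the knockouts Irgm2 ranged from -0.180 to 0.0316.

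Deviations from the group means correlated at -0.257 to 0.298 over 9 same-numbered pairs of samples. Over 18 pairs with different numbers they correlated at -0.333 to 0.345. Of the 9 libraries, 3 correlated best with their own number. So few correlations cannot settle whether same-numbered samples share a batch, and the main fit did not pair them. With the replicate block, 2346, 6198 and 6458 genes and 4, 1 and 4 members were called in the Usp5 knockout, the Ythdf1 knockout and between them. Of the pathway calls named, the block ended those of Ifngr1 (adjusted p = 0.0654) and Atg16l1 (0.0572) in the Usp5 knockout and of Il18 in the Ythdf1 knockout (0.05).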
